A study of Mus musculus with 8 samples.

Results

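The transcripts described here encode the ligand TNF, 5 receptors of its family (Tnfrsf1a, Tnfrsf1b, Tnfrsf12a, Ltbr and Fas) and 4 proteins that work beneath them, the adaptors Traf1 and Traf2 and the ubiquitin ligases Birc2 (cIAP1) and Birc3 (cIAP2). These 10 genes were taken by symbol from a table of 24787 rows, and all 10 were present. The cells were 4T1, a mouse mammary carcinoma line. The control group of 4 libraries carried a control shRNA (labelled NT in the file header, genotype WT). The other 4 carried an shRNA against the ETS factor Etv5 (labelled sh2, genotype Etv5 knockdown). The file headers give each group a single construct name, and a second Etv5 shRNA was not analysed here. No label says whether libraries of a group came from separate cultures, so p-values measure only how these samples spread, and that spread may be technical.

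TNF family receptors are membrane proteins that cluster when a trimeric ligand binds. Tnfrsf1a and Fas carry a death domain inside the cell and can start apoptosis, whereas Tnfrsf1b, Tnfrsf12a and Ltbr bind TRAF adaptors directly. TRAF2 brings the cIAPs to the receptor, where they attach ubiquitin chains that favour NF-kB signalling over cell death. Away from an engaged receptor, TRAF2 and the cIAPs keep the kinase NIK (Map3k14) low. Tnf, Traf1, Birc3 and Fas are known as genes that NF-kB can induce.

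Expression is given as the authors' sequencing coverage, read here as scaled for depth and averaged over the bases of each gene (coverage value). That reading came from the values, and the gene model behind the averages is not given. Levels of different genes can therefore be set side by side as levels per length only roughly. For Traf1, for example, the longest transcript has 3436 bases and all annotated exons together 8819. A row was tested if it reached 0.5 in at least 4 libraries, and 11731 rows did. Fold changes are differences of log2(value + 1), Etv5 shRNA minus control, which understate the change of low genes. Adjusted p-values are by limma with Benjamini-Hochberg adjustment over all rows tested, and a gene was called under 0.05. Summed values ran from 254792 to 390495 per library and genes above 0 from 13920 to 15379. The highest sum and the fewest genes belonged to the third Etv5 shRNA library. It stood apart in transcript length as well, with a median log2 deviation from the other Etv5 shRNA libraries of 0.41 in tested genes with transcripts of at most 2051 bases and -1.09 in those of at least 4680 bases. Results are therefore given with and without it. Control 3 deviated the same way but less. Against the median of the 8 libraries its median log2 deviations were 0.24 in those short transcripts and -0.28 in the long ones. For the third Etv5 shRNA library they were 0.33 and -1.04 on this measure, and in the remaining libraries they lay between -0.093 and 0.080. Control 3 was left out only in refits that drop single libraries. Etv5 itself was 14.1 ± 1.65 in the controls and 11.1 ± 2.52 with the Etv5 shRNA (SD, n = 4 each), with overlapping groups and an adjusted p of 0.819 by limma (0.422 without the third library), so the targeted transcript did not separate the labels. Of the windows of 50 bases in its longest transcript 26.8% also occur in transcripts of Gm4798, so the Etv5 value itself is uncertain. The epithelial genes Epcam, Krt8 and Krt18 were high in all libraries, at 91.6 or more, and of 9 tested epithelial markers Cdh1 alone was called, higher without the third library (adjusted p 0.00455 by limma). Of 19 leukocyte markers in the table only Cd68, a lysosomal protein gene, passed the filter, and Cd3e, Cd3d, Cd4, Adgre1, Nkg7 and Tyrobp were at 0 in every library.

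Promoter windows of 5 members are shown because their values with the Etv5 shRNA lay below every control, in all 8 libraries (Tnf, Fas, Traf1 and Birc2), or because the gene is the close relative of such a member (Birc3). Where RefSeq lists several starts the first is used. Each window holds the 250 bases before the annotated start, 5′ to 3′ on the gene's strand, from RefSeq on GRCm38.p6 (mm10). Capitals mark matches on either strand to GGG followed after any 5 bases by CC, a loose frame of the NF-kB site, to CCGGAA, a core bound by many ETS factors, and to TGANTCA, an AP-1 site. In Tnf and in the distal match of Fas the frame is met on both strands by the same bases.
Tnf (chr17:35202008-35202257, minus strand): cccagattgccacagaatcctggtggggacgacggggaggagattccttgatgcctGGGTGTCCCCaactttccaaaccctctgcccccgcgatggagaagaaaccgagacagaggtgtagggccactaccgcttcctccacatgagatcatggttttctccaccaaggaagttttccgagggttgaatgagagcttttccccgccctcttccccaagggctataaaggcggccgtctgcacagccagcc
Fas (chr19:34290409-34290658, plus strand): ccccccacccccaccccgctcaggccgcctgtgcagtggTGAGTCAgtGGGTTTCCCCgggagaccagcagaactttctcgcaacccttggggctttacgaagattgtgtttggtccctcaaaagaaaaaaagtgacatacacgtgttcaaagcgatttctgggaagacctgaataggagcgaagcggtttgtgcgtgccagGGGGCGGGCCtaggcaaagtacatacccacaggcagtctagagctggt
Traf1 (chr2:34961773-34962022, minus strand): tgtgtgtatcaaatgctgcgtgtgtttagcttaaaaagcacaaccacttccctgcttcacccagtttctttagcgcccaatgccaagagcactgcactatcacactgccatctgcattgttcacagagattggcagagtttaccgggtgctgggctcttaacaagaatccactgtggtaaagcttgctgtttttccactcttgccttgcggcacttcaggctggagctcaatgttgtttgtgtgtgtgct
Birc2 (chr9:7837058-7837307, minus strand): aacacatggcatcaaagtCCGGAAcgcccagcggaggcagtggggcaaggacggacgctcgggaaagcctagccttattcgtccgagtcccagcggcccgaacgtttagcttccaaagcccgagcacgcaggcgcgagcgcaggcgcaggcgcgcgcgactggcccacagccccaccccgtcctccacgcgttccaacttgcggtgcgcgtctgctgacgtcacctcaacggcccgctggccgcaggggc
Birc3 (chr9:7873171-7873420, minus strand): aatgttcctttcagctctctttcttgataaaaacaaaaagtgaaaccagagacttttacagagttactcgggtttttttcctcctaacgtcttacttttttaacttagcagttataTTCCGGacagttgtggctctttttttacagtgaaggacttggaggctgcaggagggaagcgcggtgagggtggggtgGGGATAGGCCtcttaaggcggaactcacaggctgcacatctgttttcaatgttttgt

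Among the 10 members, all of which had a window, CCGGAA occurred in 6 (Tnfrsf1a, Tnfrsf1b, Tnfrsf12a, Ltbr, Birc2 and Birc3), against 12.03% of the 32851 promoter windows of the same length. In Birc2 the match lies on the gene's strand at -232 to -227 from the start, and in Birc3 on the opposite strand at -134 to -129. The window of the second listed start of Birc2 has a match at -105 to -100, which may be the same site. The loose NF-kB frame occurred in 8 members and in 45.8% of all windows, so it sets few promoters apart. The AP-1 letters occurred in 1 member, Fas, at -211 to -205, 2 bases before its distal NF-kB frame at -202 to -193, and in 6.75% of all windows. The window of Traf1 held none of these letters. GC content of the members' windows ran from 43.6% (Birc3) to 69.2% (Ltbr), with a median of 52.4% over all windows. Only Birc3 and Traf1 (48.0%) lay below that median. The background windows were not matched for GC content and CCGGAA is itself rich in G and C, so its higher share among the members is not shown to be enrichment. All these matches describe letters in a window and say nothing about binding.

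The members spanned a wide range of levels in the control cells. Tnfrsf12a, the receptor for TWEAK, was by far the most abundant per length, with a mean of 254. Ltbr (25.6) and Tnfrsf1a (25.3) followed and their ranges overlapped. Traf1 came next at 21.01, above Traf2 (8.86), Tnfrsf1b (8.34) and Birc2 (7.78), whose neighbouring ranges overlapped. Birc3 (5.61), Fas (1.41) and Tnf (0.474) were the lowest, each apart from its neighbours. The order of the 10 means was the same with the Etv5 shRNA, with and without the third library. There the ranges of Ltbr and Tnfrsf1a, of Traf2 and Tnfrsf1b and of Tnfrsf1b and Birc2 overlapped again, and those of Birc2 and Birc3 overlapped only with the third library included.

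Of the 10 members 9 passed the filter, and none was called over 8 libraries, in a table where 0.486% of rows were called lower and 0.00852% higher by limma. At an unadjusted p under 0.05 there were 3 lower members by limma (Fas, Traf1 and Birc2), against 5.98% of all tested rows. Of the 9, 7 had a negative log2 fold change, against 69% of all rows. The median was -0.34, against -0.11 for all rows. Without the third Etv5 shRNA library 1 member, Traf1, was called lower by limma and none higher, where 2.05% of rows were called lower and 1.08% higher. At an unadjusted p under 0.05 there were then 6 lower members by limma, against 10.5% of rows. Again 7 of the 9 had a negative log2 fold change, against 50.5% of rows, and the medians were -0.23 and -0.0029.

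**Figure D1:**
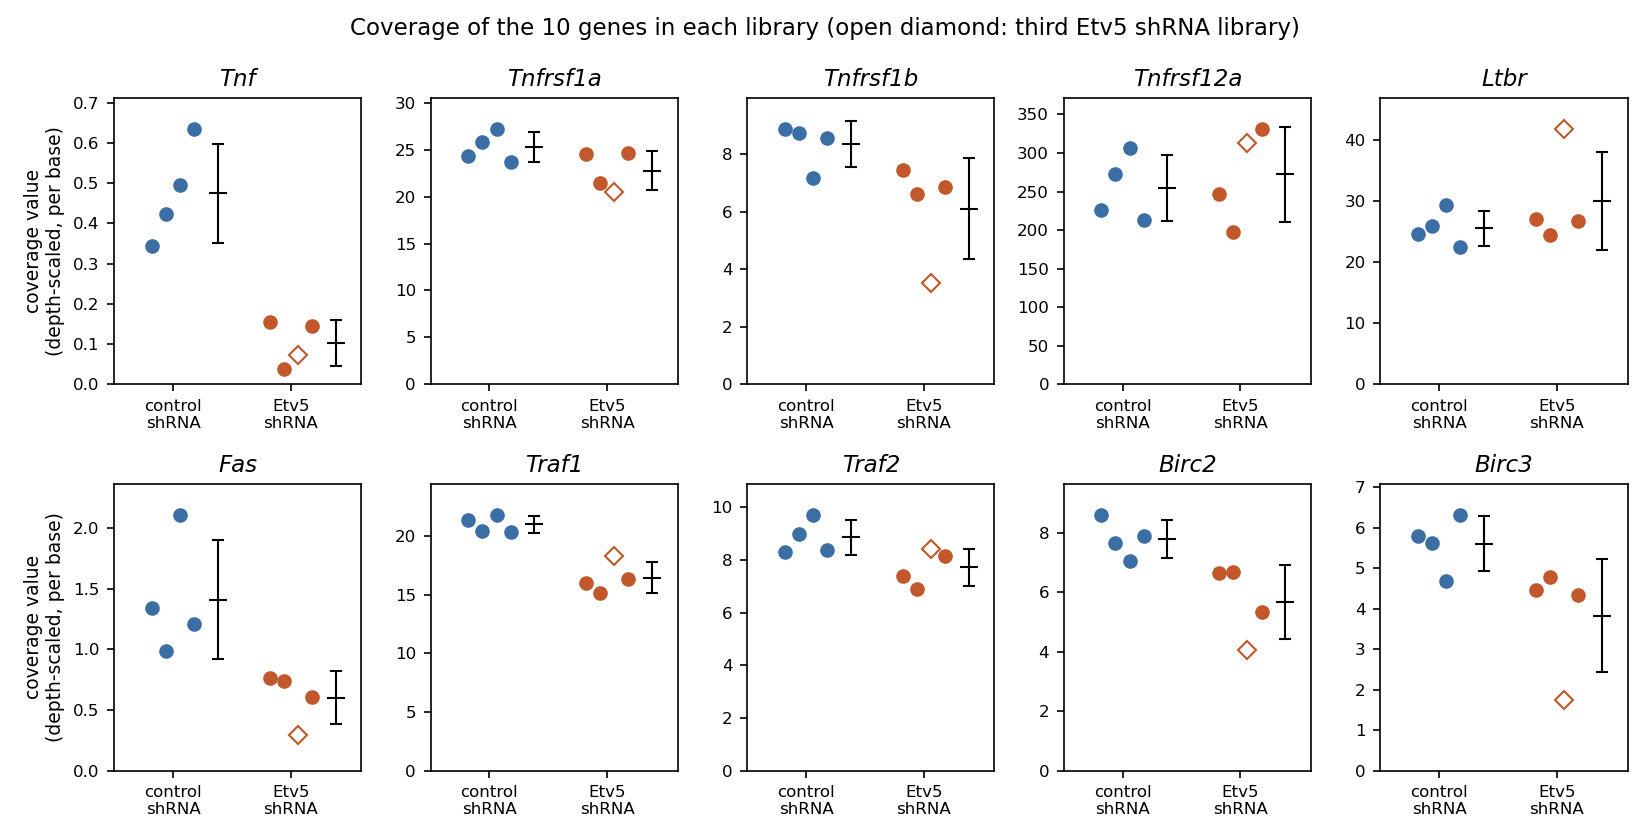
Coverage values (vertical axes, linear, from 0, each gene on its own scale) of the 10 genes in 4 control shRNA libraries (blue) and 4 Etv5 shRNA libraries (orange), with the mean and SD of each group beside the points. Tnf, Fas, Traf1 and Birc2 show no overlap between groups, and the open diamond, the third Etv5 shRNA library, lies far below the rest of its group for Birc3 and far above it for Ltbr.

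Tnf, the founding ligand of the family (chr17:35199381-35202007, minus strand), was present only as a trace in these cultured cells, and lower still with the Etv5 shRNA. Its coverage values were 0.344, 0.423, 0.495 and 0.635 in the controls and 0.155, 0.0372, 0.0730 and 0.144 with the Etv5 shRNA. All Etv5 shRNA libraries lay below all controls. The group means were 0.474 ± 0.124 and 0.102 ± 0.0567 (SD, n = 4 each), a 4.63-fold difference, and 4.23-fold without the third library. Tnf reached 0.5 in 1 library only and was therefore not tested. With no filter its log2 fold change was -0.42, with an adjusted p of 0.056 by limma, and 0.0601 without the third library. In genes with 1 exon most of the lowest values were near whole multiples of a unit, taken as the worth of 1 covered base. The share within 0.1 of a whole number was 85.7% to 98.4% per library. The unit was chosen in each library, within a preset range, to make this share highest over 30 to 64 values. The share is therefore no check of the unit, and the covered bases given next depend on that range. On that scale Tnf rested on about 3629 to 7223 covered bases in the controls and about 514 to 1821 with the Etv5 shRNA. A read covers many neighbouring bases, so far fewer reads lie behind these totals, and their number is not known. The fold difference of Tnf therefore rests on little sequence in the Etv5 shRNA libraries. In bulk RNA fewer cells with a transcript and less of it per cell cannot be told apart. TNF is made above all by macrophages and lymphocytes, and summed values of the 19 leukocyte markers were 3.15 to 4.82 in control libraries and 2.93 to 3.70 in the others. Besides Cd68 none of these markers exceeded 0.316 in any library, and 6 were at 0 throughout. Their part in the Tnf difference was not tested.

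The other ligands of the family were scarce as well. Of 17 further ligand genes 15 lay under the filter, none above 0.497 in any library. Fasl, the ligand of Fas, was at 0 throughout, and Tnfsf12, which encodes TWEAK, did not exceed 0.0226. Lta and Ltb, the lymphotoxin genes whose product binds Ltbr, had control means of 0.314 and 0.194 and Etv5 shRNA means of 0.167 and 0.147. The ligands tested were Tnfsf9, which encodes 4-1BB ligand, and Tnfsf13, which encodes APRIL. Tnfsf9 was 4.74 ± 0.951 and 4.56 ± 0.570 (SD, n = 4 each) and was not called. Tnfsf13 was 1.19 ± 0.326 and 0.322 ± 0.112 without overlap. It reached 0.5 in the 4 controls only and so passed the filter through the group where it was higher. Its direction and lack of overlap follow from that and are no separate result. Tnfsf13 missed the call over 8 libraries (adjusted p 0.0668 by limma) and passed without the third library (0.0273). Tnfsf13 is named because its values were seen.

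Tnfrsf1a, the widely expressed death domain receptor for TNF, was not called. It was 24.4, 25.8, 27.3 and 23.7 in the controls and 24.6, 21.5, 20.5 and 24.6 with the Etv5 shRNA. The ranges overlapped, and 2 Etv5 shRNA libraries lay within the control range. By limma Tnfrsf1a had a log2 fold change of -0.15 (95% interval -0.42 to 0.13; adjusted p 0.879). Without the third library it was -0.0996 (-0.30 to 0.098), and the adjusted p 0.576 by limma. With median-of-ratios scaling the sign turned, at 0.018.

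Tnfrsf1b, the TRAF-binding receptor for TNF that is best known from immune cells, had a lower mean with the Etv5 shRNA that did not pass the test. It was 8.88, 8.74, 7.15 and 8.57 in control cells, against 7.45, 6.60, 3.53 and 6.85 with the Etv5 shRNA. Control 3 was the lowest control and lay below Etv5 shRNA library 1, so the groups overlapped. The third Etv5 shRNA library was 0.506 times the mean of the other 3. The log2 fold change was -0.43 (95% interval -0.91 to 0.049) over 8 libraries and -0.23 (-0.45 to -0.0065) without the third, with adjusted p 0.758 and 0.252 by limma. With quantile normalisation the value over 8 libraries was -0.26, and with array quality weights -0.22. Tnfrsf1b was 16.5% lower by group means without that library and 26.8% with it.

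Tnfrsf12a, also known as Fn14, is a small receptor induced by growth factors and injury. Its coverage value was 226, 272, 306 and 213 in the controls and 247, 198, 314 and 332 with the Etv5 shRNA. The 2 highest values and the lowest belonged to Etv5 shRNA libraries. On the log2 scale the difference was 0.085 (95% interval -0.39 to 0.56), and 0.0083 (-0.42 to 0.43) without the third library, with adjusted p of 0.911 and 0.987 by limma. With median-of-ratios scaling it was 0.26. Its sign turned with equal sums, quantile normalisation, removal of the length trend and when Etv5 shRNA replicate 4 was left out.

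Ltbr, the lymphotoxin beta receptor, which drives the NIK branch of NF-kB signalling, was 24.6, 25.9, 29.3 and 22.5 in the controls and 27.1, 24.5, 41.9 and 26.7 with the Etv5 shRNA. Only the third Etv5 shRNA library lay outside the control range, at 1.61 times the mean of its group's other libraries. The log2 fold change was 0.20 (95% interval -0.22 to 0.62) over 8 libraries and 0.032 (-0.19 to 0.26) without the third, with adjusted p 0.879 and 0.889 by limma. Over 8 libraries Ltbr ran from 0.11 with equal sums to 0.37 with median-of-ratios scaling.

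Fas, the death receptor for Fas ligand (chr19:34290666-34327772, plus strand), was weakly expressed, with lower values in every Etv5 shRNA library. Its coverage values were 1.34, 0.988, 2.11 and 1.21 in the controls and 0.764, 0.743, 0.289 and 0.605 with the Etv5 shRNA. The highest Etv5 shRNA library stayed under the lowest control. By group means Fas was 2.35-fold lower over 8 libraries and 2.01-fold without the third. Its log2 fold change was -0.58 (SE 0.165, 95% interval -0.96 to -0.21), and its adjusted p 0.348 by limma. Without the third library it was -0.48 (SE 0.145, 95% interval -0.81 to -0.16), and the adjusted p of 0.116 by limma did not pass either. With array quality weights the value for Fas was -0.32. Groups failed to overlap, with the Etv5 shRNA lower, in 3 of the 9 tested members (Fas, Traf1 and Birc2) and in 7.58% of all tested rows. No member was higher without overlap (1.52% of rows). Without the third library the same held for 4 of 9 members, with Traf2 added, and for 10.4% of rows, and again none was higher without overlap (9.76%).

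Of 23 other receptor genes of the family 11 were tested. Over 8 libraries 1 was called lower and none higher, where 0.486% of all rows were called lower and 0.00852% higher. That gene was Tnfrsf9, which encodes the T cell costimulatory receptor 4-1BB and is itself induced by NF-kB. It was 2.08, 1.54, 1.93 and 1.61 in the controls and 0.611, 0.358, 0.758 and 0.407 with the Etv5 shRNA, without overlap. The log2 fold change was -0.87 (SE 0.124) with an adjusted p of 0.0207 by limma, and -0.94 (SE 0.108, adjusted p 0.00196 by limma) without the third library. Cd40, another receptor that NF-kB can induce, was 3.18 ± 0.505 and 2.11 ± 0.563 (SD, n = 4 each) and was not called (adjusted p 0.573 by limma, 0.0544 without the third library). The median log2 fold change of the 11 receptors was -0.28 over 8 libraries and -0.030 without the third, against -0.11 and -0.0029 for all rows.

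Traf1 missed the call over 8 equally weighted libraries and passed it, as lower, once the third Etv5 shRNA library was removed. The gene lies at chr2:34941750-34961772 on the minus strand of mm10. It encodes an adaptor that lacks the RING finger of other TRAFs and forms complexes with TRAF2. Traf1 was 21.4, 20.44, 21.8 and 20.38 in the controls and 16.01, 15.2, 18.3 and 16.3 with the Etv5 shRNA. No library crossed between the groups, and the third Etv5 shRNA library was the closest to the controls. Group means were 21.01 ± 0.715 and 16.4 ± 1.31 (SD, n = 4 each), 1.28-fold lower, and 15.8 ± 0.609 (n = 3), 1.33-fold lower, without the third library. Over 8 libraries the log2 fold change was -0.34 (SE 0.116, 95% interval -0.60 to -0.075) and was not called (adjusted p 0.492 by limma). Without the third library Traf1 was called lower, at -0.39 (SE 0.0762, 95% interval -0.56 to -0.22, adjusted p 0.0297 by limma). That call was lost when 1 further library was left out, for 6 of 7 choices (adjusted p 0.0597 to 0.148 by limma), and kept only without control 3 (0.0111). Over 8 libraries the value was -0.17 with median-of-ratios scaling and -0.21 with each library's length trend removed, neither called. With array quality weights, whose estimate did not converge and which gave the third Etv5 shRNA library a weight of 0.0265, Traf1 was called lower (adjusted p 0.00033 by limma), as were Birc3 (0.0041), Fas (0.011), Birc2 (0.018), Tnfrsf1b (0.022) and Traf2 (0.024). The further removals of single libraries were chosen after seeing the data. A marker of another cell type also differed: Pdgfra, a fibroblast receptor gene, was 2.54 to 3.54 in the controls and 0.519 to 2.15 with the Etv5 shRNA and was called lower without the third library (adjusted p 0.0452 by limma). It was the 1 of 12 fibroblast and endothelial markers that passed the filter. None of the others exceeded 0.357 in any library, and Dcn and Lum were at 0 in every library. Sums over the 12 were 2.80 to 3.69 in the controls and 0.662 to 2.61 with the Etv5 shRNA, and were therefore mostly Pdgfra. The part of these markers in the Traf1 difference was not tested.

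Traf2, the adaptor that carries the cIAPs, was 8.31, 9.01, 9.72 and 8.39 in the controls and 7.41, 6.91, 8.43 and 8.16 with the Etv5 shRNA. The groups overlapped through the third Etv5 shRNA library alone. Traf2 had a log2 fold change of -0.18 (95% interval -0.47 to 0.11) and, without that library, -0.22 (-0.43 to -0.0061), with adjusted p 0.879 and 0.252 by limma. Over 8 libraries it shrank to -0.021 with median-of-ratios scaling, -0.025 with the length trend removed and -0.048 with quantile normalisation. The other 5 TRAF genes, Traf3 to Traf7, were all tested and none was called in either direction, with or without the third library. Their median log2 fold change was -0.066 over 8 libraries and 0.21 without it.

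Birc2 (chr9:7818227-7837064) and Birc3 (chr9:7848699-7873186) are neighbours, both read from the minus strand, with 11634 bases between their annotated ends. Birc2 was 8.59, 7.63, 7.03 and 7.87 in the controls and 6.63, 6.66, 4.05 and 5.33 with the Etv5 shRNA. All 4 Etv5 shRNA libraries lay below all controls, by a narrow margin between 6.66 and 7.03. Its log2 fold change was -0.41 (95% interval -0.80 to -0.031) and -0.29 (-0.52 to -0.052) without the third library, with adjusted p 0.643 and 0.177 by limma. Over 8 libraries Birc2 was -0.24 with quantile normalisation, -0.25 with array quality weights and -0.27 with median-of-ratios scaling.

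Birc3, the cIAP that NF-kB induces, was 5.81, 5.62, 4.69 and 6.32 in the controls and 4.45, 4.79, 1.74 and 4.33 with the Etv5 shRNA. Control 3 and Etv5 shRNA library 2 crossed, so the groups overlapped. The third Etv5 shRNA library, at 0.385 times the mean of the other 3, widened the SD of its group from 0.236 to 1.404. For Birc3 the log2 fold change was -0.51 (95% interval -1.06 to 0.051) and -0.25 (-0.49 to -0.020) without that library, with adjusted p 0.747 and 0.23 by limma. Over 8 libraries it was -0.32 both with quantile normalisation and with array quality weights. By group means Birc3 was 31.8% lower with the third library and 19.4% lower without it, and Birc2 27.2% and 20.2%. When the longest transcripts were read in windows of 50 bases, 7.66% of those of Birc3 and 2.07% of those of Birc2 were also found in transcripts of other genes, among them the predicted gene Gm7019. For Traf2 this share was 2.26% and for Traf1 0.384%, and for the other 6 members it was 0, so a part of the coverage of these 4 is uncertain.

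**Figure D2:**
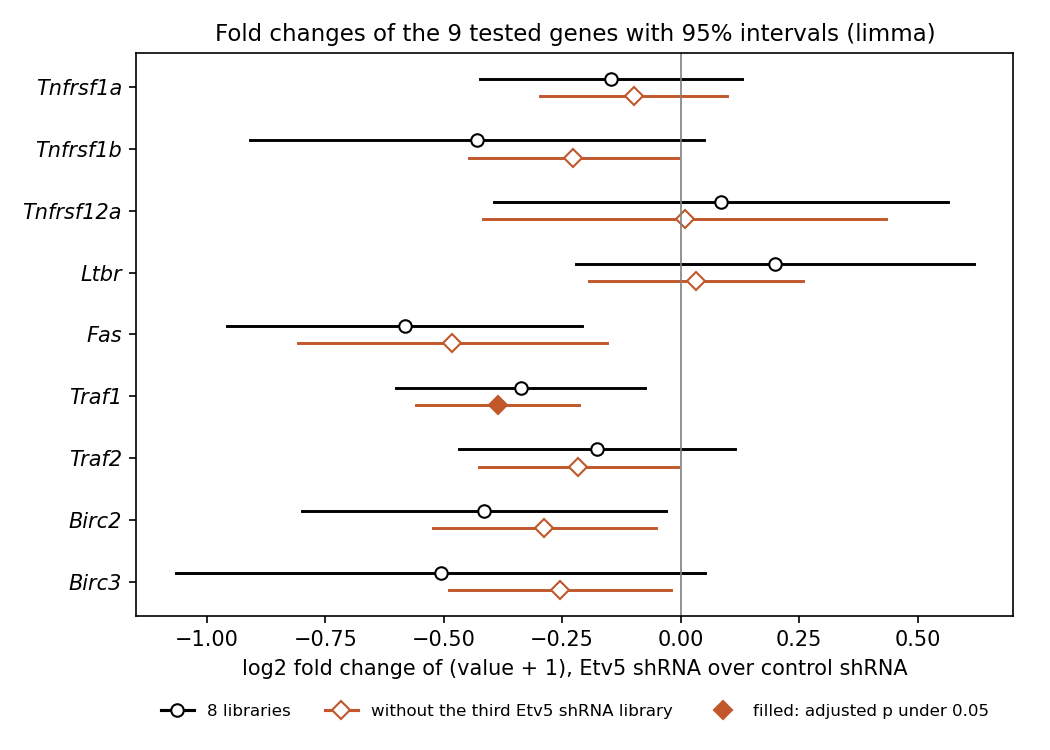
Log2 fold changes of (value + 1) with 95% intervals for the 9 tested genes, over 8 libraries (black circles) and without the third Etv5 shRNA library (orange diamonds). A filled symbol marks an adjusted p under 0.05, which only Traf1 reached, at -0.39 without the third library.

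Ratios of related members within a library do not depend on how that library was scaled, and 3 were compared by exact two-sided permutation tests. A library's length trend can still move ratios of members that differ in length, as Tnfrsf1b (3818 bases) and Tnfrsf1a (2156 bases) do. Its part in the ratios was not tested. Over 8 libraries 70 assignments were possible and the smallest p was 0.0286. The ratio of Traf1 to Traf2 was 2.58, 2.27, 2.24 and 2.43 in the controls and 2.16, 2.20, 2.17 and 2.00 with the Etv5 shRNA. It was lower in every Etv5 shRNA library, by 0.16 on the log2 scale (exact permutation p = 0.0286, 0.0857 adjusted over the 3 ratios). No ratio could pass the adjustment here unless another ratio was as low, so this failure does not measure the size of the difference. Without the third library the exact permutation p was 0.0571 (0.171 adjusted). Here the third Etv5 shRNA library lay among the others of its group.

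The ratio of Birc3 to Birc2 was 0.676, 0.736, 0.668 and 0.803 in the controls and 0.671, 0.718, 0.43 and 0.813 with the Etv5 shRNA. The log2 difference was -0.17 over 8 libraries (exact permutation p = 0.6) and 0.027 without the third (exact permutation p = 0.857), so the direction rested on that library. The ratio of Tnfrsf1b to Tnfrsf1a was 0.364, 0.339, 0.262 and 0.361 in the controls and 0.303, 0.307, 0.172 and 0.278 with the Etv5 shRNA. Control 3 was the lowest control and lay under all but the third library of the other group. The log2 difference was -0.35 (exact permutation p = 0.143, 0.214 adjusted) and -0.15 without the third library (exact permutation p = 0.314).

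**Figure D3:**
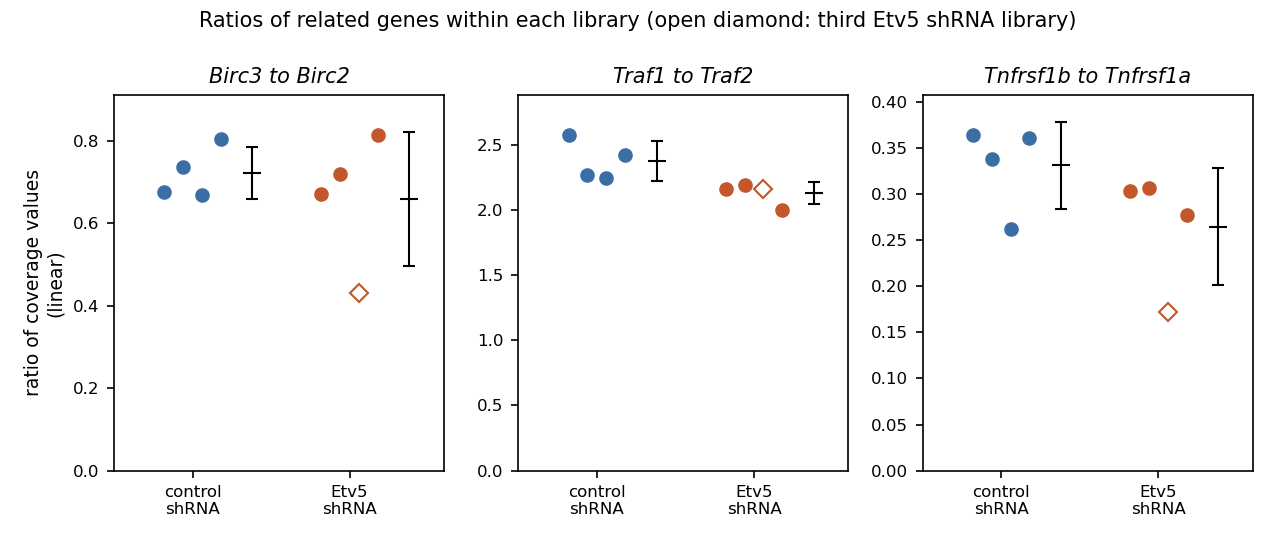
Ratios of coverage values (linear axes from 0) of 3 pairs of related genes within each library, with the mean and SD of each group. For Traf1 to Traf2 all Etv5 shRNA libraries, at 2.00 to 2.20, lie below all controls, and for the other pairs the open diamond, the third Etv5 shRNA library, is the lowest of its group.

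The members did not shift together in the third Etv5 shRNA library. Set against the mean of the other 3 of its group, it was at 0.385 for Birc3, 0.411 for Fas, 0.506 for Tnfrsf1b, 0.651 for Tnf and 0.652 for Birc2, and at 0.870 for Tnfrsf1a. It was higher for Traf2 (1.13), Traf1 (1.15), Tnfrsf12a (1.21) and Ltbr (1.61). The 3 members with the lowest transcript GC content, Birc2 (43.1%), Fas (43.9%) and Birc3 (46.6%), were among the 5 lowest ratios, and the 2 highest ratios belonged to the members with the highest GC content, Ltbr (60.4%) and Tnfrsf12a (57.9%). Over all tested genes the library's median log2 deviation was -0.77 in those with at most 44.9% GC and -0.13 in those with at least 54.7%. Within the middle of the GC range the order did not hold: Tnfrsf1b (53.7%) was at 0.506 and Traf1 (53.9%) at 1.15. Transcript length gave no strict order among the members either: Fas, at 1625 bases, was low and Traf2, at 4117 bases, was not. Over all tested genes the median log2 deviation was 0.41 at lengths of at most 2051 bases and -1.09 at 4680 bases or more. The part of base composition or length in the members' differences was not tested beyond the fit with the length trend removed.

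**Figure D4:**
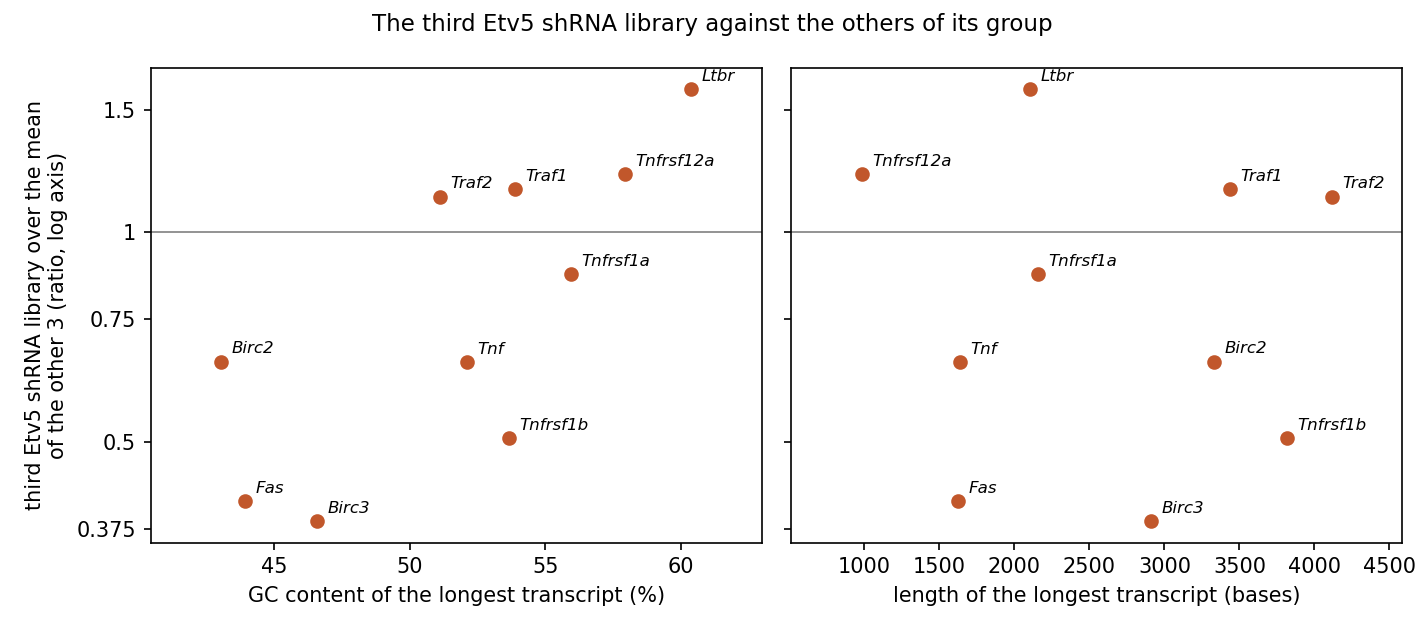
Coverage value in the third Etv5 shRNA library over the mean of the other 3 Etv5 shRNA libraries (log axis) for each of the 10 genes, against GC content (left) and length (right) of the longest annotated transcript. Ltbr, with the highest GC content, has the highest ratio (1.61), and Birc3, Fas and Birc2, with the lowest, have ratios of 0.385 to 0.652.

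Proteins that transmit signals from the receptors showed no called gene. Of 15 such genes, among them Tradd, Ripk1, the linear ubiquitin ligase subunits Rnf31, Rbck1 and Sharpin, the TAK1 complex and the IkB kinases, all were tested. None was lower and none higher, with or without the third library, and the median log2 fold change was -0.16, and -0.059 without it. Map3k14, which encodes the NIK kinase that TRAF2 and the cIAPs hold down, was 5.21 ± 0.504 and 4.88 ± 1.595 (n = 4 per group, adjusted p by limma 0.895). These values are of the transcript, and the level of NIK protein was not measured. Of 10 further IAPs and IAP antagonists 5 were tested and none was called, among them Xiap, which blocks caspases directly (10.7 ± 2.10 and 9.07 ± 4.69).

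The list of genes that restrain the receptor complex also held some adaptors beside it. Of 9 tested none was called over 8 libraries, with a median log2 fold change of -0.21. A20 is an NF-kB target, and its gene Tnfaip3 was 16.8 ± 2.11 in the controls and 14.96 ± 4.59 with the Etv5 shRNA, with an adjusted p of 0.879 by limma. Without the third library 2 of the 9 were lower and none higher, where 2.05% of all rows were called lower and 1.08% higher. Tnip1, an A20 partner, went from 23.002 ± 0.503 (n = 4) to 15.4 ± 1.598 (n = 3), adjusted p 0.0112 by limma. Traf3ip2, which was in the list but encodes an adaptor of IL-17 receptors, went from 13.4 ± 0.761 to 9.75 ± 0.349, adjusted p 0.0273 by limma. In the death branch (Fadd, Casp8, Cflar and others) none of 11 tested genes was called over 8 libraries, and 1 was lower without the third. This was Bid, whose product links death receptors to mitochondria, at 9.70 ± 0.532 (n = 4) and 6.74 ± 0.589 (n = 3), adjusted p 0.0273 by limma. Tnip1, Traf3ip2 and Bid are named because their values were seen.

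Transcripts that TNF is known to induce through NF-kB, apart from the members, included several with far larger differences than the receptors and adaptors. Of 22 listed genes 19 were tested, 5 were lower over 8 libraries (Nfkbia, Cxcl1, Ccl2, Ccl20 and Ier3) and none higher. Over all tested rows 0.486% were called lower and 0.00852% higher. The listed genes had a median log2 fold change of -0.49, against -0.11 for all rows. The list was chosen with earlier results of these data known. Nfkbia, which encodes the inhibitor IkBα, fell from 48.7, 48.3, 54.9 and 45.2 to 19.9, 22.6, 12.3 and 20.5 (log2 fold change -1.37, adjusted p 0.0183 by limma). Its groups were far apart, and the same held for the chemokine gene Cxcl1 at -3.20 (adjusted p 0.000497 by limma). Without the third library 8 of the listed genes were lower and none higher, where 2.05% of all rows were called lower and 1.08% higher. Others of that list were not called: Sod2, a mitochondrial superoxide dismutase gene, was 11.2 ± 1.05 and 13.5 ± 1.42 and Vcam1, an adhesion molecule gene, 12.3 ± 1.14 and 10.3 ± 2.75 (SD, n = 4 each), with adjusted p 0.819 and 0.879 by limma. Against Nfkbia, the called difference of Traf1 without the third library, at -0.39, was small, and the log2 fold change of Nfkbia in that fit was -1.19.

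Candidates for the pattern most like Traf1 were the 7622 tested genes whose higher group mean reached 5. Nearest over the 8 libraries were Cbarp, Grn and Sumf2. Their root-mean-square distances from Traf1, on log2(value + 1) relative to the control mean, were 0.0588, 0.0606 and 0.0634. Grn, which encodes progranulin, was 78.04 ± 2.92 and 62.2 ± 3.66 (SD, n = 4 each), and Cbarp 5.28 ± 0.370 and 3.87 ± 0.446. None of these genes was called over 8 libraries (adjusted p by limma 0.505, 0.501 and 0.724) or without the third (0.0525, 0.0636 and 0.0924).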

How the data were processed

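RNA of 8 libraries of 4T1 cells was measured, from TruSeq libraries run on a NovaSeq, per the labels' protocols. The submitters' processing notes name STAR 2.7.10a and the build mm10. The deposited table holds a signal, and per the file headers its columns derive from coverage tracks; the reading as depth-scaled mean coverage per base came from the values, which times transcript length summed to 739 to 769 megabases per library. The sources used here do not give the program that averaged coverage per gene, its annotation or its use of strand. Read depth is unknown, so no counting interval is given. No exon of a member overlaps another annotated gene in GENCODE mouse release 21, which gave lengths and coordinates for 97.7% of rows; the longest annotated transcript was used.

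Groups and replicate numbers came from the titles. Rows that reached 0.5 in 4 or more of the 8 libraries, also in fits without the third Etv5 shRNA library, entered limma 3.58.1 in R 4.3.3 on log2(value + 1), with an intensity trend and no covariate. The code was run on 10 simulated sets with 200 genes changed by 1 on the log2 scale. It recovered 86.5% of these genes, and 6.49% of its calls were false. The simulated noise followed the spread of the controls and held no deviant library. Smaller changes, such as those of the members, were not simulated. Ratios were tested by exact permutation. Alternatives were equal sums, median-of-ratios scaling, quantile normalisation, a pseudocount of 0.1, no filter, a filter at 1, the replicate number as a block, array quality weights, removal of each library's length trend (lowess, span 0.3), and leaving out each library. The members and lists were chosen with earlier results of these data known. Named were all members, list genes called over 8 libraries, the 4 called list genes with the lowest adjusted p where over 4 passed without the third Etv5 shRNA library, and the 3 genes most like a called member; other names are marked as chosen for their values or were picked for their role with values seen (Tnfsf9, Cd40, Lta, Ltb, Fasl, Tnfsf12, Map3k14, Xiap, Tnfaip3, Traf3 to Traf7, Sod2, Vcam1 and the marker genes).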

Additional observations from a re-analysis of the deposited data

Results flagged for a closer look

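Each group of 4 libraries was screened for a library far from the other 3, over the 10 members and 3 ratios. Of 26 groups 2 passed Dixon's 95% limit, where chance gives 1.3, and both were the third Etv5 shRNA library. Ltbr was 41.9 there and 24.5 to 27.1 in the other 3 (ratio of gap to range 0.851). Birc3 was 1.74 there and 4.33 to 4.79 in the other 3 (0.850).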

How the results depend on the processing

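Of 161 refits of a tested member under the planned settings, 148 kept direction and side of the threshold, 8 gained a call and 5 changed sign. The sign changes were Tnfrsf1a with median-of-ratios scaling (log2 fold change 0.018) and Tnfrsf12a with equal sums (-0.0045), quantile normalisation (-0.072), the length trend removed (-0.020) and without Etv5 shRNA replicate 4 (-0.019, in a range of -0.019 to 0.23 over single libraries left out). Members called lower numbered 0 over 8 libraries, 6 with array quality weights and 1 with the length trend removed and without the third Etv5 shRNA library, and 0 to 1 with each library left out. Weights ran from 0.0265 for the third to 10.7 for the first Etv5 shRNA library, and their estimate did not converge. The ratio of Birc3 to Birc2 ran from -0.28 to 0.027 on the log2 scale with each library left out, positive without the third Etv5 shRNA library.

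Over all genes 57 were lower and 1 higher. Higher genes numbered 7 with median-of-ratios scaling, 0 with equal sums, 8 with quantile normalisation and 3 with no filter. A pseudocount of 0.1 gave 37 lower and 0 higher, array quality weights 1670 and 1513, the length trend removed 94 and 23, and this without the third Etv5 shRNA library 512 and 418. Single libraries left out gave 28 to 241 lower and 0 to 127 higher, the most of each without the third Etv5 shRNA library. Across all genes the median log2 fold change moved from -0.11 to 0.018 with median-of-ratios scaling.

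Settings added after seeing the data all omit the third Etv5 shRNA library. Median-of-ratios scaling gave 222 lower and 135 higher genes, quantile normalisation 242 and 167, a pseudocount of 0.1 236 and 118, and no filter 172 and 94, with 1 member lower in each. Omitting control 1 as well gave 127 and 29, control 2 112 and 19, control 3 625 and 420, control 4 194 and 66, Etv5 shRNA library 1 85 and 11, library 2 82 and 15, and library 4 138 and 48. Members lower were then 3 without control 3 (Traf1, with Tnfrsf1b and Birc3 at adjusted p 0.0436 and 0.0386 by limma) and 0 in the other 6. Tnfrsf12a turned negative without control 1 (-0.044), control 4 (-0.071) or Etv5 shRNA library 4 (-0.19), and Ltbr without control 4 (-0.025). The cause of these shifts was not tested.

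With the replicate block no member was called (Traf1 at adjusted p 0.441 by limma), 50 genes were lower and 1 higher, and the smallest p a ratio could reach was 0.125. The labels name no source shared by equal numbers. Deviations of same-numbered libraries correlated at 0.55, 0.092, 0.79 and 0.51, and only those numbered 3 correlated best with their own number. Read depth is unknown, which limits the lowest members, Tnf and Fas.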
